A study of Heterocephalus glaber with 3 samples.

Results

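VEGFA, CA9, NDRG1, ADM and ANKRD37 are genes that low oxygen is known to induce in other mammals and that lie outside glycolysis. They were picked by symbol, case ignored, from the gene list of 3 single-cell RNA libraries, and all 5 were found among the 23189 features listed. Each library holds tumour cells from 1 naked mole-rat, Heterocephalus glaber, and the 3 animals form a single group, called animals 1 to 3 here. According to the labels, the lung tumours were started by an adenovirus with CRISPR reagents, whose edits include loss of Rb and the Eml4-Alk inversion, and were dissected by hand 15 weeks after infection. No unedited animal was analysed here, so classes of cells were compared within these animals, and the oxygen level of the tissue was not measured.

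The shared route to these genes is the hypoxia-inducible factor, HIF. When oxygen is plentiful, prolyl hydroxylases of the EGLN family mark the HIF alpha subunits for destruction through VHL. When it falls, HIF1A or EPAS1 pairs with ARNT and switches on target genes. The naked mole-rat lives in crowded burrows and is known for surviving low oxygen that other mammals do not. The 5 products act in different places. VEGFA is a secreted growth factor that makes endothelial cells sprout, through the receptors KDR and FLT1. ADM is the precursor of adrenomedullin, a secreted peptide that widens and seals vessels through the receptor CALCRL with RAMP2 or RAMP3. CA9 is a carbonic anhydrase on the cell surface that helps cells set the acidity around them. NDRG1 is an intracellular protein tied to stress and differentiation, and ANKRD37 is a small ankyrin repeat protein whose transcript is a widely used mark of HIF activity in human cells.

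The libraries held 76093932, 86575320 and 91949365 UMIs (unique molecular identifiers, each counting 1 captured molecule) in animals 1, 2 and 3, and 24580 cells were kept. Levels are given as CPM, the usual count unit scaled to all UMIs of the summed cells. Clusters were named from marker genes, and 9 classes were compared: epithelial-like, fibroblast- or mural-like, endothelial-like, monocyte- or macrophage-like, dendritic-like, T- or NK-like, B-like, plasma-like and neutrophil-like cells. Another 5683 cells, 23.2% of those kept, lay in clusters that stayed unnamed. An unnamed cluster of 1490 cells was led by IL1R2, ACOD1 and FCN1, with the neutrophil markers CSF3R and CXCR2 also among its leading genes. The neutrophil-like class is the LTF- and CRISP3-led cluster only. The smallest classes were endothelial-like (53, 100 and 44 cells) and neutrophil-like (61, 18 and 51 cells, the 18 not used in any mean or test). In plasma-like cells the 10 most counted features took 70.7% of the UMIs, against 11.3% to 46.7% in the other classes compared, so CPM of other genes are low there by construction.

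Taken per library, without regard to cell class, VEGFA stood at 14.0, 17.3 and 12.8 CPM in animals 1, 2 and 3. CA9 stood at 62.3, 65.7 and 61.3 CPM, and ADM at 57.0, 76.1 and 67.8 CPM. ANKRD37 stood at 31.4, 41.6 and 27.7 CPM. NDRG1 was sparse, with 106, 353 and 265 UMIs, or 1.55, 4.39 and 3.34 CPM. CA9 varied least between the animals, and animal 2 was highest for all 5 genes.

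**Figure D1:**
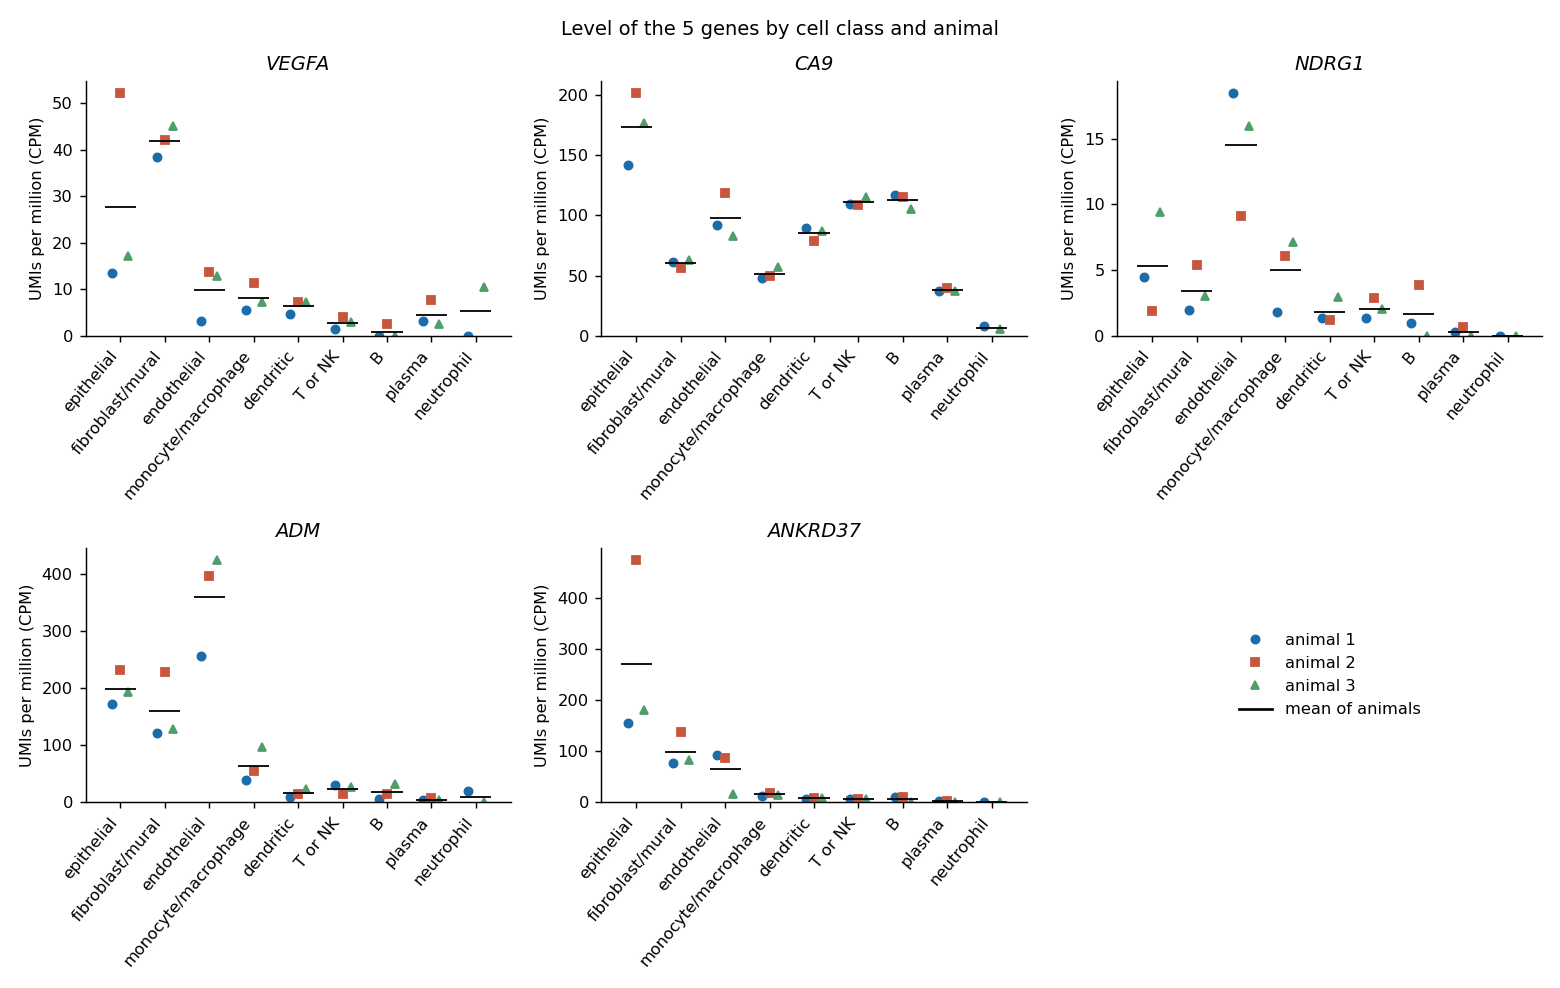
CPM of each gene (vertical axis, linear, its own range in each panel) in 9 cell classes (horizontal axis). Each point is 1 animal, the black line is the mean of the animals, and sums of under 20 cells are left out. VEGFA is high in fibroblast- or mural-like and epithelial-like cells, ADM in endothelial-like cells (256, 397 and 425 CPM) and ANKRD37 in epithelial-like cells (155, 476 and 182 CPM). CA9 is spread over all classes compared but the LTF- and CRISP3-led neutrophil-like one.

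The tests asked in which classes each gene stood above or below the mean of the other classes. Of 45 pairs of a gene and a class, 26 passed (edgeR's quasi-likelihood test with the animal as block, Benjamini-Hochberg adjusted p under 0.05 over the 13714 genes tested). These classes differ in much of their transcriptome, so each count is set against the share of all genes that passed in the same direction. In epithelial-like cells 5 of 5 genes were higher, where 44.5% of all genes passed, 28.7% higher and 15.8% lower. The NDRG1 call among these was lost in 9 of 15 alternatives, among them with the neutrophil-like class left out. In fibroblast- or mural-like cells 3 were higher and 1 lower, where 49.5% of all genes passed, 33.2% higher and 16.3% lower. In endothelial-like cells 3 were higher, where 29.6% passed, 17.1% higher and 12.5% lower. In monocyte- or macrophage-like cells 2 were higher and 1 lower, where 37.6% passed, 27% higher and 10.6% lower. T- or NK-like cells had 1 higher and 2 lower, where 40.5% passed, 25.5% higher and 15.1% lower, and B-like cells had the same counts, where 29% passed, 16.5% higher and 12.5% lower. Dendritic-like cells had 0 higher and 1 lower, where 31% passed, 20.7% higher and 10.3% lower. Plasma-like cells had 2 higher and 1 lower, where 38% passed, 23.5% higher and 14.5% lower. The 2 higher ones, VEGFA and CA9, changed sign with the scaling, and no direction is read for them. Neutrophil-like cells had 0 higher and 1 lower, where 14.5% passed, 6.91% higher and 7.58% lower. With 5 genes a class, shares of this kind move in steps of a single gene.

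**Figure D2:**
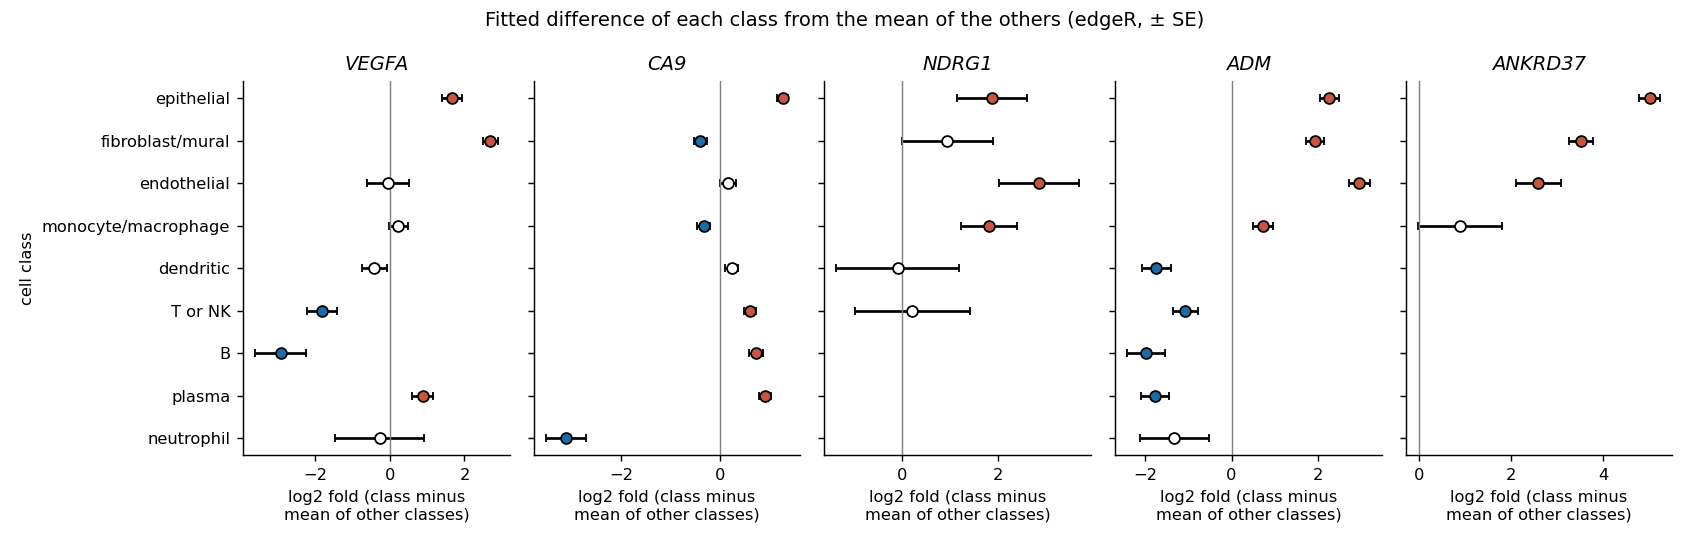
Fitted log2 fold change of each class against the mean of the other classes (horizontal axis, ± SE, edgeR) for the 5 genes, with the classes down the page. Filled points passed an adjusted p of 0.05 (red higher, blue lower), open points did not, and differences with an SE above 1.5 are not drawn. VEGFA leans to epithelial-like and fibroblast- or mural-like cells, and ADM and ANKRD37 to these and to endothelial-like cells.

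VEGFA, the secreted ligand that calls in vessels, had its highest mean level in fibroblast- or mural-like cells, a class in which the IGF2- and MMP3-led mesenchymal tumour-type cells described further on held 1480 of the VEGFA UMIs and the other fibroblast-like cells 336. Fibroblast- or mural-like cells held 38.3, 42.1 and 45.1 CPM in animals 1, 2 and 3, and 75.6%, 35.9% and 57.9% of all VEGFA UMIs of the kept cells. The animals were close to each other, and each lay above the 0 to 13.7 CPM of the 7 classes other than epithelial-like. In the order of VEGFA levels each class overlapped its neighbours. The fitted difference from the mean of the other classes was 2.69 ± 0.20 on the log2 scale (SE, adjusted p = 1.5e-11, edgeR, higher in 3 of 3 animals). Without animal 2 it was 3.59, where the B-like sums left held 0 VEGFA UMIs. Without animal 3 it was 3.58, where the 1 neutrophil-like sum left held 0.

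Epithelial-like cells had 13.5, 52.1 and 17.2 CPM of VEGFA in animals 1, 2 and 3. Animal 2 stood alone, above its own fibroblast- or mural-like value, while the other two animals lay well below theirs. The class held different kinds of cells in each animal: alveolar type 2-like cells numbered 48, 83 and 113 of its 194, 125 and 332 cells, and the summed level of the 4 basal markers measured was 3201, 427 and 3016 CPM. The part of this in the result was not tested. The class was higher than the mean of the others by 1.67 ± 0.27 (adjusted p = 1.2e-05, edgeR), and by 0.47 with adjusted p = 0.24 against all other kept cells pooled. Without animal 3 the difference was 2.91, where the 1 neutrophil-like sum left held 0 VEGFA UMIs. At the finer clustering the alveolar type 2-like cells, which make surfactant, had 40.2, 82.8 and 18.7 CPM, from 15, 47 and 14 UMIs. The SCGB3A2- and Krt8-led epithelial-like cells had 7.78 and 17.4 CPM in animals 1 and 3, with 17 cells in animal 2. An unnamed cluster led by SERPINE2, SPINK5 and KRT14, with 198 of its 201 cells from animal 2, had 44.6 CPM there.

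VEGFA was low in lymphoid cells. T- or NK-like cells had 1.48, 3.98 and 2.92 CPM and were lower than the mean of the other classes by −1.82 ± 0.40 (adjusted p = 0.000588, edgeR). B-like cells had 0, 2.60 and 0 CPM, 4 UMIs in all, and were lower by −2.93 ± 0.68 (adjusted p = 0.0017, edgeR). Both calls depended on the animals: the T- or NK-like one was lost without animal 2 (−1.26) or animal 3 (−0.90), and the B-like one without animal 3 (−1.83) (without animal 2, B-like cells held 0 VEGFA UMIs). Monocyte- or macrophage-like cells had 5.51, 11.4 and 7.26 CPM, and endothelial-like cells had 3.08, 13.7 and 12.8 CPM from 14 UMIs. The endothelial-like sums also held markers of other types: 7 of 8 fibroblast markers were counted, at a summed 108, 366 and 1360 CPM, and 3 of 3 plasma markers, at 2609, 2756 and 40217 CPM, and their part in endothelial-like values was not tested. In both classes, the difference from the mean of the other classes (0.23 ± 0.26 and −0.04 ± 0.56) did not pass.

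With each cell thinned to 2000 UMIs, 7.19% of fibroblast- or mural-like cells held a VEGFA UMI (95% exact binomial interval 6.26% to 8.20%). This was 5.02% of epithelial-like cells (3.43% to 7.04%) and 0.74% of B-like cells (0.20% to 1.89%). By animal the shares were 2.25%, 16.7% and 2.71% in epithelial-like cells and 0%, 1.27% and 0% in B-like cells, so both pooled shares rest on animal 2. Unthinned, the shares were 29.2%, 13.7% and 0.31% at median depths of 9594.5, 6270 and 1870 UMIs. Intervals cover counting error only.

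VEGFA's receptors peaked in endothelial-like cells. KDR, the main signalling receptor of endothelium, had 166, 226 and 153 CPM in endothelial-like cells and at most 1.15 CPM in any animal of the other classes except epithelial-like cells, which had 13.01, 17.1 and 19.5 CPM. Endothelial-like and epithelial-like cells were both higher than the mean of the other classes (adjusted p = 1.2e-16 and 5.5e-10 with the neutrophil-like class left out, edgeR). FLT1, which binds VEGFA tightly and signals less, had 176, 143 and 134 CPM in endothelial-like cells. It had 26.6, 48.9 and 66.5 CPM in monocyte- or macrophage-like cells and 15.3, 22.6 and 14.2 CPM in fibroblast- or mural-like cells, and at most 5.25 CPM in any animal of the other classes. The 3 classes were higher than the mean of the others by 4.25 ± 0.23, 2.87 ± 0.17 and 0.90 ± 0.19 (adjusted p = 3.9e-13, 1.2e-12 and 0.00033, edgeR, neutrophil-like class left out). The third of these did not hold against all other kept cells pooled (−0.53, adjusted p = 0.15).

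Of the other ligands of the family VEGFC and VEGFD, which act mainly on lymphatic vessels, were tested. VEGFC had 15.4, 22.9 and 6.39 CPM in endothelial-like cells and was higher there by 3.25 ± 0.44 (adjusted p = 1.4e-06, edgeR). Both were higher in fibroblast- or mural-like cells, VEGFC at 6.42, 7.397 and 3.00 CPM and VEGFD at 0.58, 4.71 and 1.92 CPM (log2 fold changes of 2.01 ± 0.26 and 3.81 ± 0.71, adjusted p = 3.4e-07 and 9.1e-05, edgeR).

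ADM, the other secreted ligand, was highest in endothelial-like cells, with 256, 397 and 425 CPM from 83, 260 and 133 UMIs. Epithelial-like cells followed at 172, 231 and 194 CPM, and fibroblast- or mural-like cells at 122, 229 and 129 CPM. The ranges of the epithelial-like and fibroblast- or mural-like classes overlapped, and both lay under the endothelial-like range and above the 39.1, 54.3 and 97.0 CPM of monocyte- or macrophage-like cells. The fitted differences were 2.97 ± 0.24 in endothelial-like, 2.27 ± 0.22 in epithelial-like and 1.94 ± 0.21 in fibroblast- or mural-like cells (adjusted p = 1.8e-10, 2.9e-09 and 2.1e-08, edgeR, higher in 3 of 3 animals). Without animal 1 they were 4.21, 3.38 and 3.21, where the 1 neutrophil-like sum left held 0 ADM UMIs.

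Among endothelial-like cells ADM split by cluster. The FCN3- and VWF-led cluster of blood vessel type, with 28, 84 and 25 cells, had 463, 499 and 621 CPM of ADM. The MMRN1- and STAB1-led cluster of lymphatic type, with 25, 16 and 19 cells, had 19.7, 21.3 and 115 CPM, from 3, 3 and 14 UMIs. LYVE1 was among the leading genes of both clusters, so it does not separate them. The ranges did not overlap, but 2 of the 3 lymphatic-type sums were under 20 cells, and no test was made.

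The receptor of adrenomedullin was concentrated in the same class. CALCRL, the receptor chain that binds the peptide, had 955, 1283 and 581 CPM in endothelial-like cells and at most 5.24 CPM in any animal of the other classes. RAMP2, its partner chain, had 6367, 4363 and 3483 CPM there, and 56.5, 63.5 and 74.1 CPM in fibroblast- or mural-like cells. RAMP3, the alternative partner, had 73.9, 264 and 603 CPM in endothelial-like cells and at most 10.1 CPM in any animal of the other classes. These genes were kept out of the clustering, but all 3 are among the leading genes of an endothelial-like cluster, so their levels are a description.

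**Figure D3:**
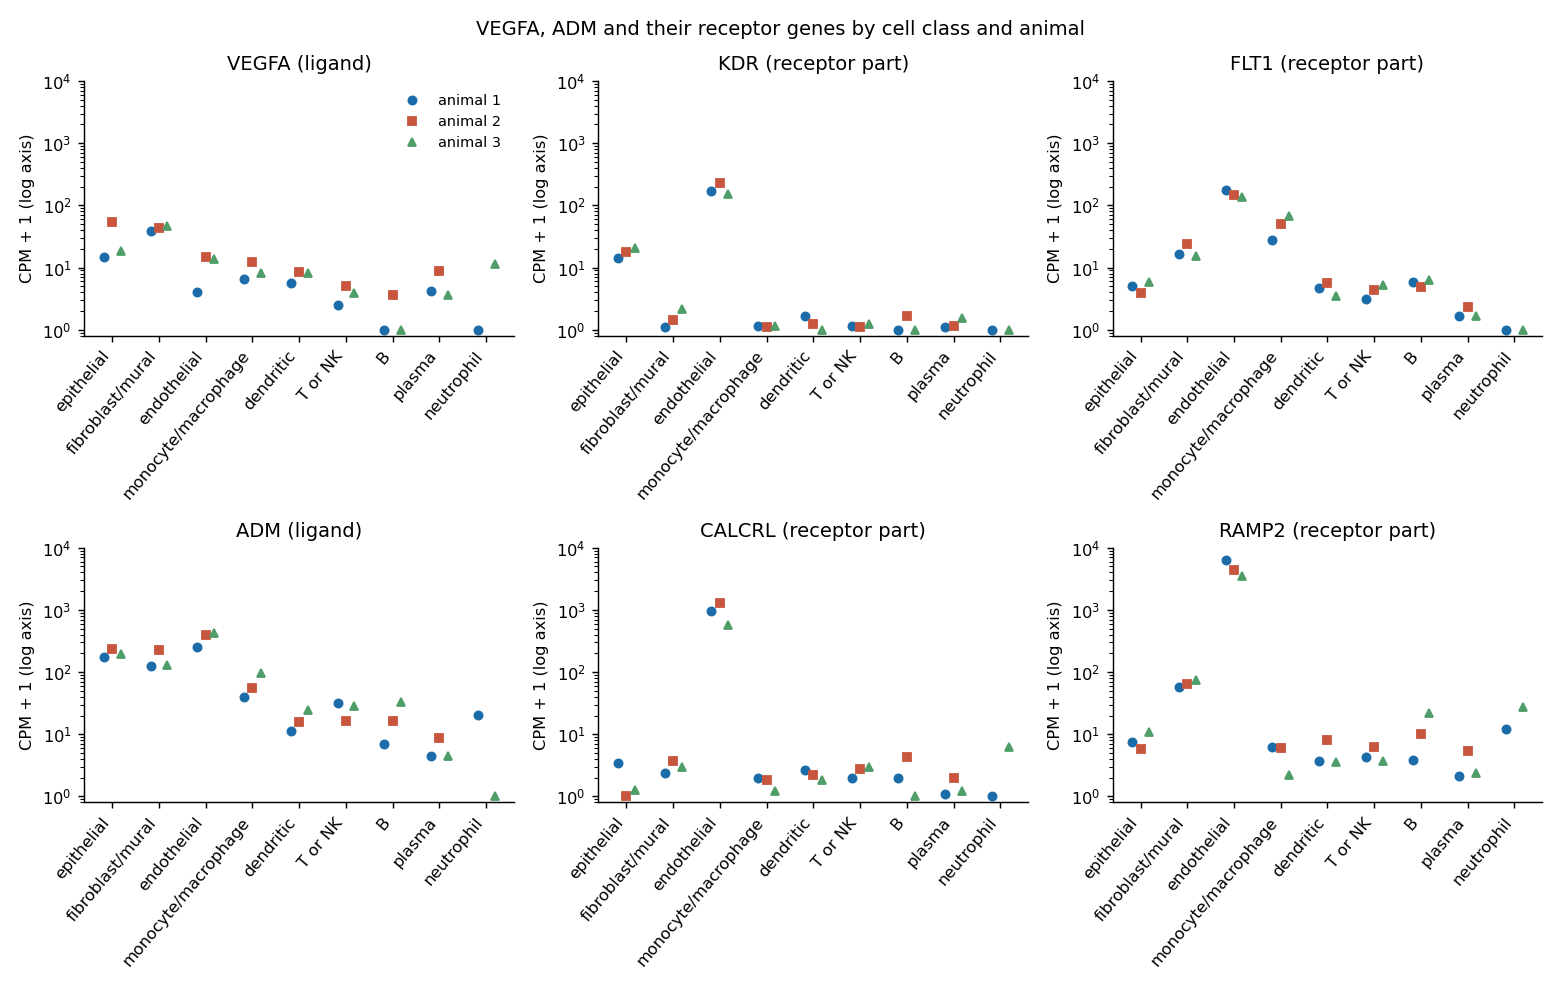
CPM + 1 on a log axis for VEGFA with its receptors KDR and FLT1 (top) and for ADM with its receptor parts CALCRL and RAMP2 (bottom), by class and animal. KDR, CALCRL and RAMP2 peak in endothelial-like cells, and FLT1 is also counted in monocyte- or macrophage-like cells (26.6, 48.9 and 66.5 CPM).

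Most immune classes carried little ADM. Plasma-like cells had 3.44, 7.83 and 3.48 CPM, dendritic-like cells 10.3, 14.9 and 23.3 CPM, B-like cells 5.84, 15.6 and 31.5 CPM and T- or NK-like cells 30.3, 15.5 and 27.0 CPM. The 4 classes were lower than the mean of the others, by −1.77 ± 0.33, −1.75 ± 0.33, −1.98 ± 0.44 and −1.07 ± 0.29 (adjusted p of 0.0001, 0.00016, 0.0011 and 0.0036, edgeR). Without animal 1 each missed the threshold, at −0.49, −0.36, −0.39 and −0.28, and without animal 2 the T- or NK-like one did so at −0.73. With the neutrophil-like class left out all 4 passed, at values between −2.17 and −1.25. Within the T-like cells, the cluster led by CD40LG and IL7R, genes of helper-type T cells, had 89.7, 40.5 and 43.5 CPM, against 15.5 to 30.3 CPM in the T- or NK-like class as a whole.

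Monocyte- or macrophage-like cells were above the mean of the other classes in ADM by 0.73 ± 0.24 (adjusted p = 0.015, edgeR). The value was 0.29 without animal 3 and −0.04 against all other kept cells pooled, and the call held in 9 of 15 alternatives. With each cell thinned to 2000 UMIs, an ADM UMI was found in 33.1% of endothelial-like cells (95% exact binomial interval 26.0% to 40.8%), 19.6% of fibroblast- or mural-like cells, 14.2% of epithelial-like cells and 0.93% of plasma-like cells. The unthinned shares were 37.6%, 44.2%, 28.4% and 4.99% at median depths of 3769, 9594.5, 6270 and 14202 UMIs.

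ANKRD37 was highest in epithelial-like cells, at 155, 476 and 182 CPM. Fibroblast- or mural-like cells had 76.9, 137 and 82.7 CPM, and endothelial-like cells had 92.4, 86.9 and 16.0 CPM, from 30, 57 and 5 UMIs. Monocyte- or macrophage-like cells had 12.1, 19.2 and 15.5 CPM, and no value of the dendritic-like, B-like, T- or NK-like and plasma-like classes was above 10.7 CPM. The epithelial-like range lay above that of all other classes, while those of fibroblast- or mural-like and endothelial-like cells overlapped. The 2 neutrophil-like sums held no UMI of ANKRD37 or NDRG1, so fold changes against a mean that includes them depend on the prior count. Without that class, an alternative chosen after the data were seen, epithelial-like cells were higher by 3.87 ± 0.18, fibroblast- or mural-like cells by 2.31 ± 0.18 and endothelial-like cells by 1.42 ± 0.31 (adjusted p = 9.2e-15, 1.5e-10 and 0.0009, edgeR). With it the values were 5.01, 3.52 and 2.59, which passed as well. T- or NK-like, plasma-like, dendritic-like and B-like cells were lower without that class, by −2.05, −2.06, −1.63 and −1.53 (adjusted p between 1.5e-06 and 0.006, edgeR), where the fit with all classes gave no readable value. The endothelial-like call did not hold against all other kept cells pooled (0.52, adjusted p = 0.23).

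Among the epithelial-like kinds, alveolar type 2-like cells had the most ANKRD37, with 308, 789 and 327 CPM from 115, 448 and 245 UMIs, in 48, 83 and 113 cells. The SCGB3A2- and Krt8-led cells had 142 and 158 CPM in animals 1 and 3, and ciliated-like cells had 35.2, 52.0 and 21.7 CPM. The 3 epithelial-like kinds kept the same order in animals 1 and 3, and in animal 2 the alveolar type 2-like cells were again above the ciliated-like ones. ADM did not follow that order: alveolar type 2-like cells had 64.3, 259 and 14.7 CPM of ADM, whereas the SCGB3A2- and Krt8-led cells had 216 and 256 CPM in animals 1 and 3, and ciliated-like cells had 123.3, 182 and 143 CPM. In alveolar type 2-like cells animal 2 stood above animals 1 and 3 for VEGFA, ADM and ANKRD37.

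CA9 had another distribution, in that it was counted in lymphoid as well as structural cells. Epithelial-like cells had 142, 202 and 177 CPM. B-like cells had 117, 116 and 105 CPM, T- or NK-like cells 110, 109 and 116 CPM, endothelial-like cells 92.4, 119 and 83.0 CPM and dendritic-like cells 89.2, 79.0 and 87.2 CPM. Fibroblast- or mural-like cells had 61.2, 56.2 and 63.1 CPM, monocyte- or macrophage-like cells 48.1, 49.3 and 57.3 CPM, plasma-like cells 36.9, 39.6 and 37.3 CPM, and neutrophil-like cells 8.39 and 5.24 CPM from 3 UMIs and 1 UMI. The epithelial-like range lay above the rest. Those of B-like, T- or NK-like, endothelial-like and dendritic-like cells overlapped each other in turn. Within most classes the animals differed by little.

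The epithelial-like difference in CA9 was 1.26 ± 0.12 and the neutrophil-like one −3.12 ± 0.41 (adjusted p = 1.1e-09 and 2.6e-06, edgeR). B-like cells were higher by 0.72 ± 0.14 and T- or NK-like cells by 0.60 ± 0.12 (adjusted p = 0.00027 and 0.00022, edgeR), but with the neutrophil-like class left out these were 0.35 (adjusted p = 0.032) and 0.22 (adjusted p = 0.080). Fibroblast- or mural-like cells were lower by −0.41 ± 0.13 and monocyte- or macrophage-like cells by −0.34 ± 0.13 (adjusted p = 0.014 and 0.047, edgeR). Both of these missed the threshold without animal 1 (−0.38 and −0.21) and without animal 2 (−0.37 and −0.31), and were larger with the neutrophil-like class left out (−0.85 and −0.75). Each was lost in 5 of 15 alternatives: the first also with library totals alone (−0.08, adjusted p = 0.64), without the filter on low counts (−0.35) and with thinned cells (−0.37), and the second also without that filter (−0.28), without the animal as block (−0.33, adjusted p = 0.13) and against all other kept cells pooled (−0.21).

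Epithelial-like cells held 6.62%, 4.03% and 12.7% of the CA9 UMIs of the kept cells, and T- or NK-like cells 19.0%, 21.7% and 10.6%. With each cell thinned to 2000 UMIs, CA9 was found in 32.8% of epithelial-like cells (95% exact binomial interval 29.2% to 36.7%), in 20.6% of T- or NK-like cells (19.4% to 21.9%), in 7.81% of plasma-like cells and in 1.75% of neutrophil-like cells (0.21% to 6.19%). The unthinned shares were 68.4%, 33.3%, 39.7% and 3.08%, at median depths of 6270, 2748.5, 14202 and 3334.5 UMIs. The intervals given here do not overlap, but that of B-like cells (20.4%, 17.1% to 24.1%) overlapped that of T- or NK-like cells. They cover counting error over pooled cells and not the spread between animals. No annotation of the files' build was used, so whether reads of a neighbouring gene are counted as CA9 was not examined.

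At the level of clusters, CA9 was highest in the ciliated-like one, at 293, 219 and 254 CPM at the finer clustering, and in alveolar type 2-like cells, at 212, 247 and 334 CPM. An unnamed cluster led by TIMELESS, NIBAN3 and MPEG1 had 175, 192 and 180 CPM of CA9 in 105, 109 and 66 cells, and at most 4.73 CPM of VEGFA in any animal. The unnamed IL1R2- and ACOD1-led cluster, with the neutrophil markers CSF3R and CXCR2, had 39.6, 32.5 and 72.7 CPM of CA9, from 49, 34 and 44 UMIs. Another member of the enzyme family, CA2, an enzyme inside the cell, had 113, 225 and 72.6 CPM in epithelial-like cells and was higher there than in the mean of the other classes by 3.96 (adjusted p = 3.6e-14, edgeR). CA12, a second surface enzyme, had at most 2.69 CPM in any class and animal.

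NDRG1 was the sparsest of the 5 transcripts in UMIs. Endothelial-like cells had 18.5, 9.15 and 16.0 CPM, from 6, 6 and 5 UMIs. Monocyte- or macrophage-like cells had 1.81, 6.06 and 7.12 CPM from 23, 103 and 101 UMIs, epithelial-like cells 4.503, 1.90 and 9.46 CPM, and fibroblast- or mural-like cells 1.95, 5.38 and 3.00 CPM. The ranges of these 3 overlapped, and that of endothelial-like cells overlapped the epithelial-like one. Without the neutrophil-like class, endothelial-like cells were higher by 2.08 ± 0.63 and monocyte- or macrophage-like cells by 0.98 ± 0.32 (adjusted p = 0.013 and 0.014, edgeR), and plasma-like cells, with 0.26, 0.65 and 0 CPM, were lower by −2.28 ± 0.64 (adjusted p = 0.0059, edgeR). With it the first 2 values were 2.87 and 1.83, which passed. The endothelial-like call was lost without animal 1 (2.47, adjusted p = 0.16) and the monocyte- or macrophage-like one without animal 3 (1.51, adjusted p = 0.15). In all, the first was lost in 2 of 15 alternatives and the second in 5, where it went down to 0.50. The epithelial-like call, 1.88 ± 0.73 (adjusted p = 0.039, edgeR), was lost in 9 of 15 alternatives, among them without animal 1 (1.90), without animal 3 (1.27) and without the animal as block (1.90, adjusted p = 0.059). With the neutrophil-like class left out the epithelial-like difference was 1.05 ± 0.44 and did not pass either (adjusted p = 0.055, edgeR). Of its family, NDRG2 was higher in endothelial-like cells by 2.33 ± 0.44, in epithelial-like cells by 1.34 ± 0.37 and in fibroblast- or mural-like cells by 1.26 ± 0.30 (adjusted p of 0.00016, 0.0039 and 0.00089, edgeR).

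The sign of VEGFA and CA9 in plasma-like cells changed with the scaling. CPM of VEGFA (3.18, 7.67 and 2.62) and of CA9 were below the average of the other classes in 3 of 3 animals. With TMM factors, which scale plasma-like sums by 0.268 to 0.444 for their few dominant transcripts, the fit gave 0.88 ± 0.28 for VEGFA and 0.91 ± 0.12 for CA9 (adjusted p = 0.013 and 6.4e-07, edgeR). With library totals alone the values were −0.82 and −0.83, and over all genes that change of scaling moved the plasma-like median by −1.73. No direction is read for them.

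A finer group of macrophages had higher levels of VEGFA, NDRG1, ADM and ANKRD37 than the other named clusters of its class. The share of all genes that lie above in the same way was not computed. Unnamed clusters that passed the monocyte or macrophage markers were not compared, among them one led by RETN, MMP7 and MMP8. At the finer of both clusterings 5 clusters were monocyte- or macrophage-like, and the one led by FBP1, FLT1, MMP7 and MMP12 had 58, 298 and 382 cells. Its NDRG1 was 10.5, 15.7 and 16.1 CPM, from 10, 63 and 76 UMIs, where the highest of the other 4 clusters had 1.74, 5.62 and 4.55 CPM. Its ADM was 112, 98.8 and 164 CPM, against at most 41.9, 52.3 and 73.7 CPM in the others. Its ANKRD37 was 75.7, 47.0 and 35.1 CPM, against at most 7.71, 17.3 and 9.49 CPM. VEGFA was 11.6, 18.7 and 18.4 CPM, against at most 9.73, 13.5 and 12.7 CPM. CA9 was not set apart, with 52.5, 54.2 and 58.2 CPM, against at most 54.7, 63.1 and 60.0 CPM.

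The same macrophage-like cells had 152, 162 and 140 CPM of FLT1, against at most 30.2, 62.5 and 40.6 CPM in the other 4 clusters. Several glycolytic genes ran with it: HK2, which traps glucose in the cell, had 73.6, 35.8 and 37.4 CPM, against at most 9.53, 11.2 and 6.63 CPM, and PGK1, a glycolytic kinase, had 719, 531 and 454 CPM, against at most 297, 394 and 265 CPM. ERO1A, which makes disulphide bonds in the secretory path and is a known HIF target, had 145, 85.4 and 114 CPM, against at most 43.4, 55.1 and 49.1 CPM. KDM3A and ANGPTL4, both known HIF targets, did not stand above the other clusters. The cells had a median of 12264 UMIs, and 66.1% of them lay in the CYP7A1- and GPNMB-led cluster at the coarser clustering. The 5 genes and the pathway lists were not used to cluster, but the cluster was picked out after its values were seen, so these are descriptions with no test. FLT1 is among the leading genes the cluster was picked out by, so its high level there was fixed by that choice.

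**Figure D4:**
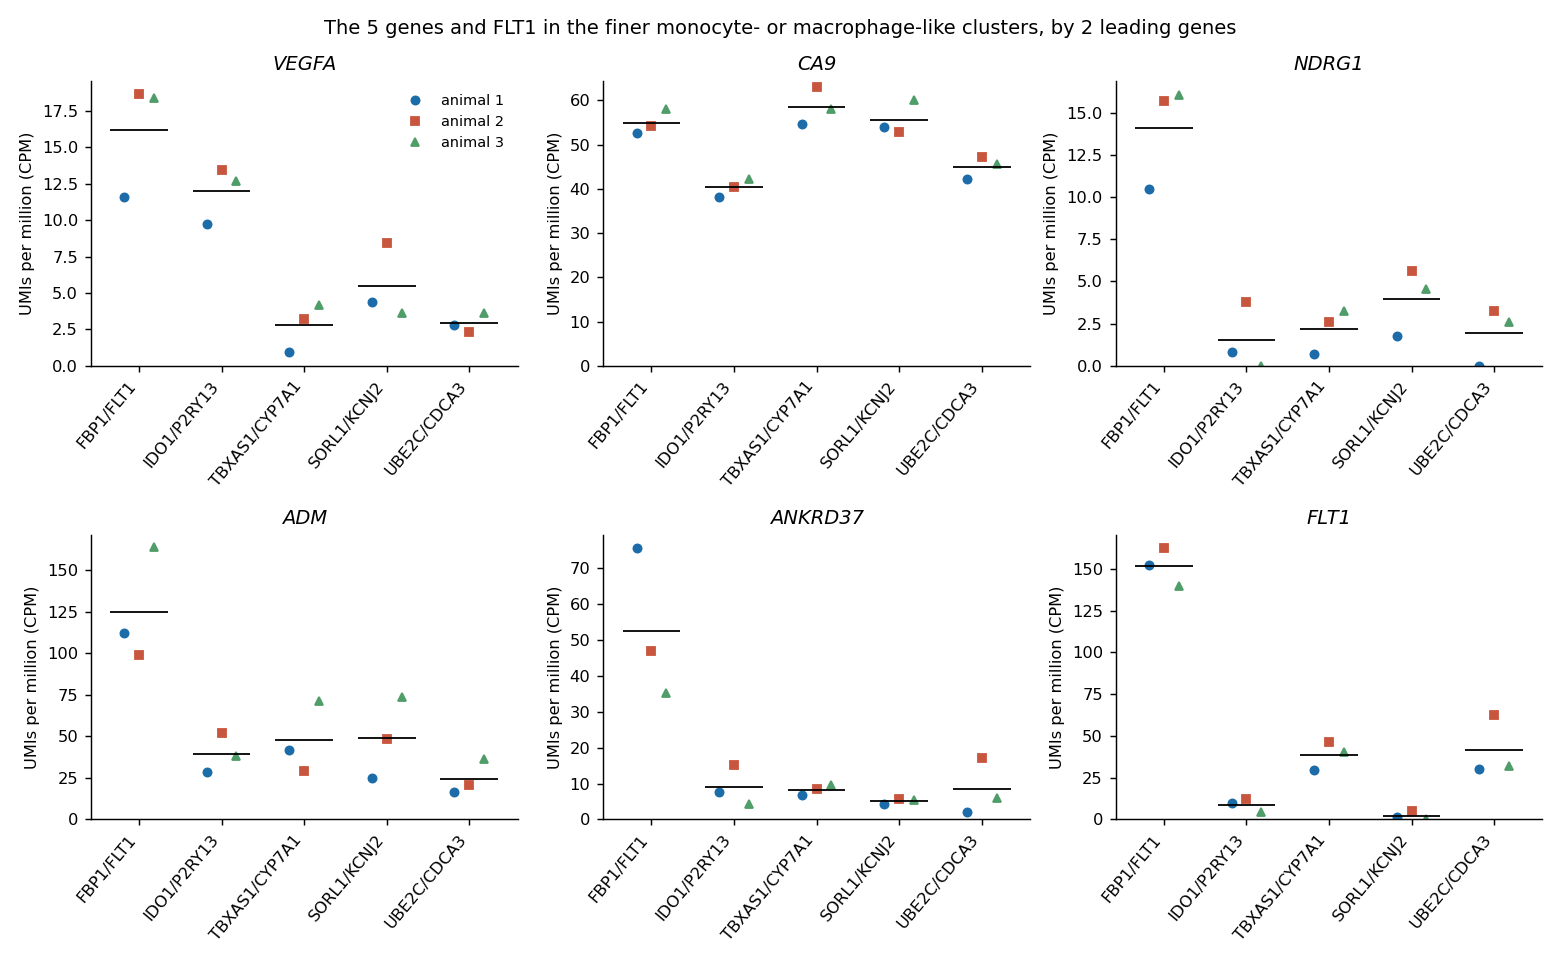
CPM of the 5 genes and FLT1 (vertical axes, linear) in the 5 monocyte- or macrophage-like clusters of the finer clustering, named by 2 leading genes. Points are animals and lines are means. The FBP1- and FLT1-led cluster lies above the other 4 in 3 of 3 animals for VEGFA, NDRG1, ADM, ANKRD37 and FLT1, and among them for CA9. FLT1 is a leading gene by which the cluster was picked out.

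Fibroblast-like cells fell into an IGF2- and MMP3-led cluster, a mesenchymal tumour-type group of 729, 424 and 581 cells, and other fibroblast-like cells led by MGP, CCL19 and MFAP4, with 361, 452 and 433 cells. Of the 5 genes 1, ANKRD37, was higher in the first, where 44.5% of the 11688 genes tested passed, 23.2% higher and 21.3% lower. ANKRD37 had 84.0, 145 and 91.3 CPM in the mesenchymal tumour-type cells, against 29.9, 115 and 48.8 CPM in the other fibroblast-like cells, a log2 fold change of 0.75 ± 0.22 (adjusted p = 0.022, edgeR with the animal as block, higher in 3 of 3 animals). Without the animal as block it was 0.61 (adjusted p = 0.27), and without animal 1 it was 0.45 (adjusted p = 0.087). The call was also lost with a mitochondrial limit of 10%, and held in 10 of 13 alternatives. ADM had 125, 205 and 101 CPM, against 104, 297 and 237 CPM in the other cells, with a fold change of −0.62 ± 0.25 (adjusted p = 0.076, edgeR). VEGFA had 40.0, 37.7 and 46.9 CPM, against 27.5, 55.2 and 38.2 CPM (−0.04 ± 0.22, adjusted p = 0.89, edgeR), and CA9 and NDRG1 did not pass either (0.29 ± 0.16 and 0.69 ± 0.35, adjusted p = 0.18 and 0.14, edgeR).

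Other HIF targets outside glycolysis differed in both directions between these 2 fibroblast-like groups, in numbers near the share of all genes. Of 18 tested outside glycolysis 6 were higher and 3 lower in the mesenchymal tumour-type cells, where 23.2% of all genes were higher and 21.3% lower. Their median log2 fold change was 0.11, against 0.0045 over all genes. STC1, a secreted regulator of calcium and phosphate, had 21.8, 63.7 and 28.0 CPM, against 1.60, 4.32 and 2.65 CPM (3.58 ± 0.21). P4HA2, a collagen prolyl hydroxylase, had 184, 171 and 205 CPM, against 77.8, 70.2 and 67.3 CPM (1.26 ± 0.12), and LOXL2, a collagen crosslinking enzyme, was higher by 1.75 ± 0.20. The adjusted p of these 3 lay between 5.7e-06 and 0.00018 (edgeR). Among the lower ones were RORA (−1.76 ± 0.14) and TMEM45A (−1.54 ± 0.22), with adjusted p of 3.0e-05 and 0.00079 (edgeR). Of 10 glycolytic targets 7 were higher and 0 lower, among them PGK1 by 1.36 ± 0.12 and Eno1 by 1.41 ± 0.14.

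Of the genes around VEGFA and ADM, 2 of 2 further VEGF ligands and 3 of 3 adrenomedullin receptor parts were lower in mesenchymal tumour-type cells. Of 2 VEGF receptors 1 was higher and 1 lower. Over all genes 23.2% were higher and 21.3% lower, and shares of lists this short move in steps of a single gene. VEGFD had 0.12, 0.34 and 0.29 CPM in mesenchymal tumour-type cells, against 3.59, 17.6 and 8.32 CPM in the others (−5.25 ± 0.41), and VEGFC was lower by −1.72 ± 0.29. RAMP2 had 33.9, 57.6 and 38.8 CPM, against 206, 80.8 and 212 CPM (−1.99 ± 0.35, and −2.65 without animal 2), and EPAS1 was lower by −1.50 ± 0.33. FLT1 was higher, at 16.9, 28.2 and 16.5 CPM, against 4.79, 5.99 and 5.29 CPM (1.81 ± 0.20). The adjusted p of these 5 lay between 2.7e-05 and 0.006 (edgeR). At the finer clustering the MFAP4- and FIBIN-led fibroblast-like cells had 131, 336 and 267 CPM of ADM, and those led by CCL19 and DCN had 73.6, 187 and 173 CPM.

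Set beside the wider pathway, classes differed in which targets they carried. In fibroblast- or mural-like cells 12 of 18 other HIF targets were higher and 0 lower, with a median log2 fold change of 1.31, against 0.22 over all genes. They included ANGPTL4, a secreted lipase inhibitor, at 2218, 1514 and 1896 CPM (4.29 ± 0.15), and P4HA2 (4.52 ± 0.14), with adjusted p of 9.1e-18 and 1.2e-18 (edgeR). Of the 10 glycolytic targets 7 were higher and 0 lower there, where 33.2% of all genes were higher and 16.3% lower. Monocyte- or macrophage-like cells had 8 higher and 0 lower (27% and 10.6% of all genes). Epithelial-like cells had 3 and 1, near the share of all genes (28.7% and 15.8%). Endothelial-like cells had 0 and 7 (17.1% and 12.5%), and B-like cells also had 0 and 7 (16.5% and 12.5%). Plasma-like cells had 0 and 5, T- or NK-like cells 2 and 5, dendritic-like cells 1 and 1 and neutrophil-like cells 4 and 0. Of the 18 other targets 7 were higher and 1 lower in epithelial-like cells, where 28.7% of all genes were higher and 15.8% lower. There were 6 and 1 in endothelial-like cells (17.1% and 12.5% of all genes) and 6 and 3 in monocyte- or macrophage-like cells (27% and 10.6%). T- or NK-like cells had 1 higher and 5 lower (25.5% and 15.1%), B-like cells 0 and 3 (16.5% and 12.5%), dendritic-like cells 1 and 6 (20.7% and 10.3%), plasma-like cells 4 and 4 (23.5% and 14.5%) and neutrophil-like cells 1 and 1 (6.91% and 7.58%). Of the HIF subunits, EPAS1 had 129, 110 and 79.8 CPM in endothelial-like cells and 20.01, 9.48 and 16.9 CPM in epithelial-like cells, and at most 6.22 CPM in any animal of the other classes. It was higher in both than in the mean of the others (adjusted p = 3.1e-15 and 5.5e-10, edgeR, neutrophil-like class left out).

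Across the 71 sums of a cluster and an animal, log2(CPM + 1) of ADM ran with that of ANKRD37 at a Pearson r of 0.75. VEGFA ran with ANKRD37 at 0.62 and with ADM at 0.50, and NDRG1 ran with ADM at 0.48. CA9 ran with VEGFA at −0.13 and with ADM at 0.28. The sums share animals and libraries, and the r of the 5 genes with the log2 mean UMIs per cell lay between −0.26 for CA9 and 0.39 for VEGFA, so these are descriptions. The genes most like each of the 5 over these sums, of 7768 compared, were PMP22, PALLD and PHLDA2 for VEGFA (r of 0.77, 0.77 and 0.72), CFAP97, R3HCC1 and SIAE for CA9 (0.80, 0.78 and 0.77) and MSL3, RIPOR1 and DEGS1 for NDRG1 (0.68, 0.68 and 0.67). They were IL33, PLK2 and PAM for ADM (0.78, 0.78 and 0.77), PAM being the enzyme that amidates peptide hormones, and IL33, PAK4 and RHBDF1 for ANKRD37 (0.82, 0.81 and 0.81).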

How the data were processed

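Single cells of dissociated lung tumours of 3 animals were captured with 10x Genomics 3' chemistry, per the labels' protocols. The authors deposited raw UMI counts per feature and barcode (9500, 10000 and 10000 barcodes), made with Cell Ranger 7.1.0 per the file headers and 8.0.0 per the submitters' processing notes. Build and annotation: not given in the sources used here. No coordinates or sequences are printed, and a planned search of promoters for HIF motifs was not run. A further edit named in the labels and 1 of the listed HIF targets are not reported here.

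Cells with at least 1000 UMIs, 500 genes and at most 20% mitochondrial UMIs were kept, and 464 with a Scrublet score of 0.2 or more were removed as possible doublets (its automatic threshold marked 0). The libraries shared 21 to 31 barcodes by pair, 0 with equal totals. Clustering (scanpy 1.11.5, 2000 variable genes without the 5 genes and the pathway lists, 30 components, 20 neighbours, Leiden at resolution 1, and 2 for the finer clustering) gave 27 and 40 clusters, named from fixed markers of which 100 of 157 were measured. Counts were summed per animal and class (26 sums of at least 20 cells) and tested by the quasi-likelihood method of edgeR 4.0.16 (filterByExpr, TMM, Benjamini-Hochberg, 0.05), with the animal as block since the classes compared come from the same animals, as each class minus the mean of the other classes. The fit was checked on simulated data. Shares of cells were taken after thinning to 2000 UMIs, which left out 3676 cells.

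The 5 genes and all lists were chosen with earlier results of these data known. Of 78 listed pathway genes 58 were measured by symbol. Named genes are the 5, list genes that a result turns on, and the 3 genes most like each. The endothelial-like levels of CALCRL, RAMP2 and RAMP3, and clusters described after their values were seen, carry no test. An alternative without the neutrophil-like class was chosen after seeing the data.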

Additional observations from a re-analysis of the deposited data

How the results depend on the processing

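Of the 45 pairs, 26 passed; this count was 17 without animal 1, 17 to 22 over the 3 fits without 1 animal, 28 of the 40 pairs left without the neutrophil-like class, and 20 to 32 under the other alternatives. Of the 5 genes, 1 passed between the 2 fibroblast-like groups; this was 2 with library totals alone, 2 without a filter on low counts, 0 without the replicate block, 3 with cells thinned to 2000 UMIs, 2 at the finer clustering, and 1 to 2 without 1 animal. The ANKRD37 call was itself lost without animal 1 and with a mitochondrial limit of 10%, so what passed without animal 1 was another gene. The block moved no other call of these 5 genes between the fibroblast-like groups. Across classes, 3 of 26 calls were lost without it. Reversed signs were those of CA9 (−0.83) and VEGFA (−0.82) in plasma-like cells with library totals alone, and, against all other kept cells pooled, those of VEGFA in plasma-like cells (−0.18), ADM in monocyte- or macrophage-like cells (−0.045) and FLT1 in fibroblast- or mural-like cells (−0.53); apart from the scaling of plasma-like sums, the cause was not tested.

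ADM in endothelial-like, epithelial-like and fibroblast- or mural-like cells, ANKRD37 in epithelial-like and fibroblast- or mural-like cells, VEGFA in fibroblast- or mural-like cells, and CA9 in epithelial-like, B-like and neutrophil-like cells passed under all alternatives run for them. Library totals alone moved the median of all genes by −0.36 to 0.59 in the other classes and by 0.11 between the fibroblast-like groups. They moved the share of calls that were higher to 4.32% in plasma-like cells (61.8% with TMM), 92.0% in endothelial-like (57.8%), 86.8% in epithelial-like (64.5%), 84.3% in fibroblast- or mural-like (67.1%), 83.7% in dendritic-like (66.7%), 80.8% in T- or NK-like (62.9%), 74.7% in B-like (57.0%) and 26.5% in neutrophil-like cells (47.7%). DESeq2 size factors moved it to 71.9% in endothelial-like, 55.5% in monocyte- or macrophage-like (71.8% with TMM) and 64.4% in neutrophil-like cells. Calls over all genes ranged widest in neutrophil-like cells, from 727 without animal 1 to 5028 without doublet removal (1987 as reported), and in plasma-like cells from 2710 with thinned cells to 8945 with library totals (5216).

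NDRG1 rests on 106 to 353 UMIs a library and neutrophil-like cells on 2 sums, which limits the size of difference that can pass there.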
